A study of Mus musculus with 4 samples.

Results

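The nuclear genes for the subunits of mitochondrial oxidative phosphorylation (OXPHOS) were examined in the RNA-seq libraries of tumor-associated macrophages (TAMs) from B16 melanomas of WT and Trim24-deficient mice. Members were chosen by name among protein-coding mouse genes, by the symbol starts Ndufa, Ndufb, Ndufc, Ndufs or Ndufv with a digit, Uqcr, Cox4 to Cox8 and Atp5, together with Sdha, Sdhb, Sdhc, Sdhd, Cyc1 and Cycs. Symbols that start with Ndufaf, which are assembly factors, were left out. The rule took 89 genes of the RefSeq annotation. Of these, 83 were listed in at least 1 library, among 16739 listed features, and 80 passed the filter on low counts, among 11302 features tested.

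OXPHOS subunits form the respiratory chain and the ATP synthase of the inner mitochondrial membrane. Complex I passes electrons from NADH, and complex II from succinate, to ubiquinone, from which complex III hands them to cytochrome c and complex IV to oxygen. Complexes I, III and IV pump protons, and complex V lets the protons flow back to make ATP. In macrophages, alternative (M2) activation by IL-4 through Stat6 is known for a high demand on mitochondrial respiration, and Trim24 was studied here as a regulator of Stat6.

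The 4 libraries came from 2 WT and 2 Trim24-deficient samples of the strain C57BL/6, 1 library per sample. All hosts were 6 to 8 weeks old when B16-F10 melanoma cells were injected under the skin of the abdomen, and CD45+ CD11b+ F4/80+ cells were sorted from the tumors on day 16. Per the study's methods, the Trim24-deficient mice were Trim24 flox/flox with LysM-Cre, a recombinase active in myeloid cells, so that other cells of the host and the tumor kept the gene, and the controls were WT littermates. The labels do not say whether a library came from 1 mouse or from a pool, so the p-values measure the spread between these samples.

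The labels were checked first. Trim24 stood at 5.86 CPM (counts scaled by TMM to a common total) in WT replicate 1, at 2.08 CPM in WT replicate 2 and at 3.41 and 0.411 CPM in Trim24-deficient replicates 1 and 2, so the groups overlapped, and the mutants are called the libraries labelled Trim24-deficient. Xist, from the inactive X, was 10.9 and 6.46 CPM in the WT libraries and 437 and 256 CPM in the others, and Y-linked Ddx3y was 73.7 and 102 against 0.426 and 0.411 CPM, although the methods state sex-matched mice. Genotype and sex therefore cannot be told apart in any comparison below. The libraries held 4476122 to 5172407 expected counts, at which 3 counts equal 0.606 to 0.639 CPM. The 8 macrophage markers listed for the check summed to 9494 and 8602 CPM in the WT libraries and 10417 and 10454 CPM in the others, with Csf1r, Cd68 and C1qa all abundant.

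No OXPHOS member passed the study's thresholds (more than 1.5-fold with an FDR under 0.05), where the background over all genes was 0.372%, or 42 of 11302. None of the 80 members reached an unadjusted p under 0.05 in edgeR's quasi-likelihood test, against 12.2% of all genes tested, and their lowest adjusted p was 0.443 (Benjamini-Hochberg). Most members nevertheless lay slightly on the higher side in the mutant-labelled samples. Log2 fold changes were above 0 for 74 of 80 members, against 49.4% of all genes tested, with a median of 0.23 for the members and -0.0059 for all genes. With library totals in place of TMM, all genes and members moved down together, to medians of -0.15 and 0.085, and 52 of 80 members lay above 0. Removing the trend of the counts on transcript length left a member median of 0.13.

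The standard errors of the members' log2 fold changes ranged from 0.18 to 0.67, with a median of 0.20. No member's 95% interval lay wholly above 0. For 55 members it reached beyond a 1.5-fold increase and for 23 it stayed within 1.5-fold in both directions. Changes of that size therefore could not be told from 0 for most members with 2 libraries per group.

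**Figure D1:**
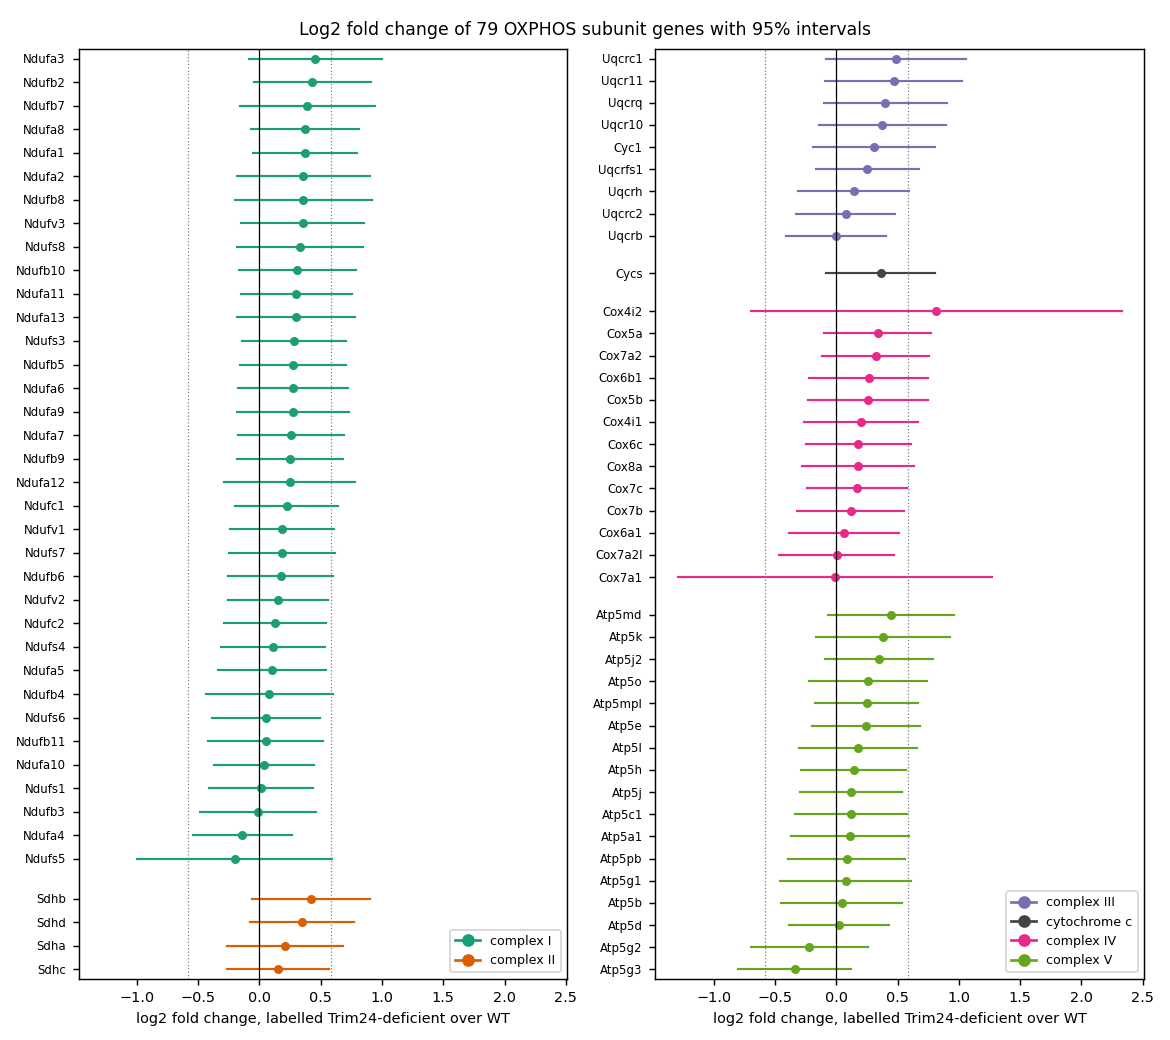
Log2 fold change of the libraries labelled Trim24-deficient over WT (x axis) for 79 of the 80 tested OXPHOS members, by complex, with 95% intervals from edgeR's quasi-likelihood fit as bars. Dotted lines mark 1.5-fold in either direction. Points lie above 0 for 73 of the 79 drawn, and every bar crosses 0.

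In CPM, both libraries labelled Trim24-deficient stood above both WT libraries for 29 of 80 members, against 21.4% of all genes tested, and below both for 2 members, Ndufa4 and Atp5g3, against 23.0%. In FPKM, which the authors scaled to transcript length and library total, the same counts were 11 above, against 12.3%, and 7 below, against 35.3%. The share of members above both WT libraries was thus near the background in FPKM, whereas the share below both was under the background on both scales. The groups overlapped for 49 members in CPM.

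Libraries of the same group also differed from each other. Trim24-deficient replicate 2 was the highest library in CPM for 50 of the 80 members, against 27.6% of all genes tested, and WT replicate 2 was the lowest for 62, against 25.7%. The median member lay 0.127 above the mean of the WT libraries on the log2 CPM scale in Trim24-deficient replicate 1 and 0.326 above it in replicate 2. WT replicate 2 lay below WT replicate 1 by a median log2 difference of -0.20. The distance between the WT libraries was thus nearly as large as the members' median log2 fold change.

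Nuclear respiratory genes are known to share binding sites for NRF1 and for GABPA, an ETS factor, in their promoters. RefSeq promoter windows of GRCm38.p6, with 250 bases before and 50 after the start, were at hand for 71 of the 89 members, as 76 windows. Both strands were searched for the letters of each motif, none of which contains another, although neighboring matches may share bases. The NRF1 letters GCGCATGC stood in 14.5% of member windows and in 2.71% of all 32851 windows. The ETS letters CCGGAAG stood in 22.4% and 8.86%, and the YY1 letters AAGATGGC in 13.2% and 2.75%. CCAAT stood in 42.1% and 37.4%, and TATAAA in 11.8% and 13.6%.

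The windows of 5 members are printed 5' to 3' on the gene's strand, with NRF1 and ETS letters in capitals, to set genes of higher, middle and low log2 fold change side by side. Uqcrc1 and Uqcr11 had the largest log2 fold changes of complex III, and Sdhb had the largest of complex II. Cox6a1 lay near 0 with the same motifs as Uqcr11 and Sdhb, and Atp5g3 had the lowest log2 fold change of all members. Among members not printed, Cox4i2, Ndufa3, Atp5md and Ndufb2 also lay above Sdhb, at 0.82, 0.46, 0.44 and 0.43 against 0.42. The windows are chr9:108936398-108936697 (plus strand) for Uqcrc1, chr10:80406772-80407071 (minus) for Uqcr11, chr4:140961021-140961320 (plus) for Sdhb, chr5:115348909-115349208 (minus) for Cox6a1 and chr2:73911277-73911576 (minus) for Atp5g3.
Uqcrc1: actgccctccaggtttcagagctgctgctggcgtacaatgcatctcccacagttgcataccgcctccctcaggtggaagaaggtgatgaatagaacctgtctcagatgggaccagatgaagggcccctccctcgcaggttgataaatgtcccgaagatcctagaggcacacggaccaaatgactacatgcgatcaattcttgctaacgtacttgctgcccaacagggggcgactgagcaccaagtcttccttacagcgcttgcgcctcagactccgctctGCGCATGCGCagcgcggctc
Uqcr11: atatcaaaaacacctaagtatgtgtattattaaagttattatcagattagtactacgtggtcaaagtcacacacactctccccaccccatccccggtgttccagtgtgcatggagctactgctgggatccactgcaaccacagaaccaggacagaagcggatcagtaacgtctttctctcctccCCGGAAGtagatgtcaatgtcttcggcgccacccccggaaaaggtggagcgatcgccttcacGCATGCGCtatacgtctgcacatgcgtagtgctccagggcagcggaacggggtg
Sdhb: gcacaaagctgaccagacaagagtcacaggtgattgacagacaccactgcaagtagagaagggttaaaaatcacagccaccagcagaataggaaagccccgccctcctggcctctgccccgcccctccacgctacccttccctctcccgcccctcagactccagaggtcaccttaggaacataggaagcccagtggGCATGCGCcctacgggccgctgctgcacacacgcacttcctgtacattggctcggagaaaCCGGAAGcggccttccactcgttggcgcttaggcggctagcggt
Cox6a1: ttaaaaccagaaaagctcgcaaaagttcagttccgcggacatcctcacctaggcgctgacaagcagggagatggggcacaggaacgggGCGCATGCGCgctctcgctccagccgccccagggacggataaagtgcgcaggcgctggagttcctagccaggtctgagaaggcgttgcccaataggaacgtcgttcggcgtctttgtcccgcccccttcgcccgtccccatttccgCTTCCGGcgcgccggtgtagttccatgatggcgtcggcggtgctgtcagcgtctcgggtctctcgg
Atp5g3: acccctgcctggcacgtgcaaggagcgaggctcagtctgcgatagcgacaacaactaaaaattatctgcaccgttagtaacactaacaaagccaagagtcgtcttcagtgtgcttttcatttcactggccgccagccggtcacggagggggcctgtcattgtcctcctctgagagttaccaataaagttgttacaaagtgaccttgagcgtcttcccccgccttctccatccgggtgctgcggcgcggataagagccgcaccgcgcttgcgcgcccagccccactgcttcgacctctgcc

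Counted from the start, the NRF1 letters began at base 31 in Uqcrc1 and at bases -4, -54 and -162 in Uqcr11, Sdhb and Cox6a1. The ETS letters began at base -66 in Uqcr11, 7 in Sdhb and -16 in Cox6a1. None of these letters, nor those of YY1, stood in the Atp5g3 window. The 11 tested members with NRF1 letters had a median log2 fold change of 0.36, with 10 above 0, and the 55 with a window that lacked them had a median of 0.19, with 50 above 0. For ETS letters, the medians were 0.26 over 17 members, all above 0, and 0.21 over 49 members, of which 43 lay above 0. For YY1 letters the order was reversed, with 0.20 over 10 members that had them and 0.24 over 56 that lacked them. The same held for CCAAT, at 0.18 over 29 members and 0.26 over 37. For TATAAA the medians were 0.32 over 6 members and 0.22 over 60. None of these differences was tested. Transcripts of the regulators themselves did not pass the test, with Nrf1 at 59.97 and 61.9 CPM in WT mice and 52.6 and 57.7 CPM in those labelled Trim24-deficient.

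Genes were assigned to complexes by symbol, so Ndufa4 and Ndufa4l2 are counted in complex I, also in its sums. Complex I, the NADH dehydrogenase, had 37 listed and 36 tested members, of which 33 had a log2 fold change above 0 (median 0.25). Its most abundant transcript by FPKM was Ndufb8, an accessory subunit, at 423 and 436 FPKM in the WT libraries and 379 and 613 FPKM in those labelled Trim24-deficient. Ndufa3, also an accessory subunit, followed a like pattern, with 267 and 294 FPKM against 265 and 427 FPKM. For both genes Trim24-deficient replicate 2 alone was high in FPKM, and the groups overlapped. In CPM, Ndufa3 was 83.0 and 87.5 against 88.6 and 145, a log2 fold change of 0.46 ± 0.24 (SE, edgeR's quasi-likelihood test, adjusted p = 0.476).

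Ndufb2 and Ndufa1 were among the complex I members with the smallest unadjusted p-values. Ndufb2, an accessory subunit, was 58.2 and 54.2 CPM in the WT group and 63.3 and 88.4 CPM in the others. Ndufa1, coded on the X chromosome, was 83.2 and 68.5 CPM against 97.1 and 99.0 CPM. Both libraries labelled Trim24-deficient lay above both WT libraries for both genes, in CPM and in FPKM. Exons of Ndufb2 overlap those of Braf on the opposite strand and of Gm42420 on the same strand, so reads there may belong to either gene. Their log2 fold changes were 0.43 ± 0.21 and 0.37 ± 0.19 (SE), with adjusted p-values of 0.443 and 0.456 in edgeR's quasi-likelihood test. The other X-linked members, Ndufb11 and Cox7b, had log2 fold changes of 0.05 and 0.12.

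In this name group 3 members lay below 0. Ndufa4, named for complex I but now assigned to complex IV, was 155 and 163 CPM in the WT libraries and 144 in both others, and it was 342 and 375 FPKM against 295 and 291 FPKM. The groups did not overlap, and the log2 fold change was -0.14 ± 0.18. Ndufs5 had the fewest reads of the tested complex I members, with 45, 36, 32 and 37 expected counts in WT replicates 1 and 2 and in Trim24-deficient replicates 1 and 2. Its log2 fold change was -0.20 ± 0.35, and that of Ndufb3 was -0.01 ± 0.21. Ndufa4l2, a Ndufa4 paralog known to respond to hypoxia, had 0 FPKM in 3 libraries and 0.80 FPKM in Trim24-deficient replicate 2, and it was not tested.

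Complex II, the succinate dehydrogenase, which also belongs to the tricarboxylic acid cycle, had all 4 members tested and all 4 above 0 (median 0.28). Sdhb, its iron-sulfur subunit, was 303 and 268 CPM in the WT libraries and 332 and 433 CPM in those labelled Trim24-deficient. The membrane anchor Sdhd was 209 and 191 CPM against 246 and 264 CPM, and the other anchor Sdhc was 220 and 205 CPM against 234 and 238 CPM. The groups did not overlap for these 3 genes in CPM, whereas in FPKM Sdhc overlapped, with 193 and 189 against 192 in both. The log2 fold changes were 0.42 ± 0.21, 0.35 ± 0.19 and 0.15 ± 0.19 (SE). Sdha, the flavoprotein, overlapped, at 409 and 325 CPM against 399 and 451 CPM.

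Complex III, the cytochrome bc1 complex, had all 9 members above 0, with a median of 0.30. Uqcrc1, a core protein, was 510 and 477 CPM in the WT libraries and 531 and 852 CPM in the others, and it gave 2527, 2290, 2493 and 4148 expected counts. Uqcr11, a small accessory subunit, was 156 and 140 CPM against 154 and 256 CPM. Trim24-deficient replicate 2 was far above the other 3 libraries for both genes, and Trim24-deficient replicate 1 stood near the WT libraries. The log2 fold changes were 0.49 ± 0.25 and 0.47 ± 0.25 (SE), with adjusted p-values of 0.469 and 0.476 in edgeR's quasi-likelihood test. Uqcrb, a ubiquinone-binding accessory subunit, overlapped between the groups at 158 and 143 CPM against 152 and 149 CPM, a log2 fold change of 0.00, and in FPKM both libraries labelled Trim24-deficient were lower, at 305 and 294 against 341 and 322.

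Cytochrome c, the electron carrier between complexes III and IV, stood at like levels in both libraries labelled Trim24-deficient. Cycs was 336 and 287 CPM in the WT libraries and 405 and 396 CPM in the others, with group means of 312 ± 34.6 and 401 ± 6.33 CPM (SD, n = 2 each). In FPKM it was 112 and 99.8 against 125 and 121. The groups did not overlap on either scale. The log2 fold change was 0.36 ± 0.20 (SE, edgeR's quasi-likelihood test, adjusted p = 0.490), and Cycs also had the lowest GC content and the longest transcript of the members, at 40.8% and 3059 bases.

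Complex IV, the cytochrome c oxidase, had 15 listed and 13 tested members, 12 above 0, with a median of 0.18. Its most abundant subunits were Cox6b1 at 746 and 653 FPKM in the WT libraries against 668 and 848 FPKM, Cox4i1 at 636 and 593 against 587 and 689 FPKM, and Cox6a1 at 575 and 622 against 511 and 615 FPKM. All 3 overlapped between the groups. Cox8a was close behind, at 515 and 429 FPKM against 511 and 454 FPKM. Log2 fold changes of these 4 genes were between 0.06 and 0.26.

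Several complex IV subunits exist in tissue versions, and the ubiquitous version made up at least 96.1% of FPKM in the Cox4, Cox6a and Cox6b pairs. Cox4i2, the version known from lung and low oxygen, gave 2.83 and 0.478% of the summed Cox4 FPKM in the WT libraries and 3.92 and 1.57% in the others. Its 63, 9, 83 and 40 expected counts spread widely within both groups, and its log2 fold change of 0.82 ± 0.67 (SE), the largest among the members, was not distinguishable from 0 (edgeR's quasi-likelihood test, adjusted p = 0.657). The muscle versions Cox6a2 and Cox7a1 took at most 0.572% of Cox6a and 4.98% of Cox7a FPKM, and the testis version Cox6b2 at most 0.224% of Cox6b. Cox6a2 and Cox6b2 fell under the filter. Cox7a2 held 61.3 to 67.4% of Cox7a FPKM and Cox7a2l 28.1 to 35.2%. Cox7a2 was 168 and 134 CPM against 190 and 189 CPM, a log2 fold change of 0.32 ± 0.20, whereas Cox7a2l, known as a factor that joins respiratory complexes, was 143 and 103 CPM against 130 and 118 CPM, a log2 fold change of 0.00. No value was listed for Cox7b2, Cox8b, Cox8c, Ndufb1, Ndufb4b and Ndufb4c.

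Complex V, the ATP synthase, had 17 tested members, 15 above 0, and the lowest median of the complexes, 0.12. Its catalytic beta subunit Atp5b was the most abundant by FPKM, with 759 and 640 FPKM in the WT libraries and 685 and 620 FPKM in the others, and it overlapped. Atp5j, of the peripheral stalk, was 374 and 380 FPKM against 382 and 385 FPKM, and it shares 124 bases with Gabpa on the opposite strand, so reads there cannot be told apart. The small membrane subunit Atp5mpl was 355 and 347 against 343 and 408 FPKM, and the dimer-associated subunit Atp5md was 277 and 199 against 331 and 257 FPKM. Atp5md had the largest log2 fold change of this complex, 0.44 ± 0.23 (SE, edgeR's quasi-likelihood test, adjusted p = 0.463), and its highest library was Trim24-deficient replicate 1.

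The membrane rotor of complex V is built from 1 mature c-subunit, for which Atp5g1, Atp5g2 and Atp5g3 each carry a gene. Their log2 fold changes differed in sign. Atp5g1 was 263 and 254 CPM in the WT libraries and 214 and 331 CPM in the others, Atp5g2 was 156 and 118 against 130 and 105 CPM, and Atp5g3 was 128 and 105 against 104 and 80.5 CPM. Atp5g3 was lower in both libraries labelled Trim24-deficient than in either WT library, with a log2 fold change of -0.34 ± 0.21 (SE, edgeR's quasi-likelihood test, adjusted p = 0.539), and Atp5g2 had -0.22 ± 0.21. Atp5g1 held 43.9 and 49.2% of the summed c-subunit FPKM in the WT libraries and 43.7 and 60.1% in the others. The c-subunit sum was 790 and 711 FPKM against 601 and 666 FPKM, lower in both libraries labelled Trim24-deficient. In FPKM, 35.3% of all genes tested lay below both WT libraries. In CPM, Atp5g1 and Atp5g2 overlapped between the groups, and no c-subunit sum was taken.

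Summed over members, the complexes showed the same dependence on single libraries. In FPKM, complex I summed to 5522 and 5329 in the WT libraries and 5148 and 6493 in the others, complex III to 1987 and 1806 against 1839 and 2403, and complex IV to 4206 and 3721 against 3978 and 4273. Complex V summed to 5179 and 4502 FPKM against 4761 and 4915, a ratio of group means of 0.999. These 4 sums overlapped between the groups. Complex II, at 796 and 737 against 802 and 911 FPKM, and cytochrome c did not overlap. All members together summed to 17803 and 16194 FPKM in the WT libraries and 16653 and 19117 FPKM in the others, a ratio of 1.05. CPM is not scaled to transcript length, and unlike FPKM it is scaled by TMM. The TMM factors, by which library totals are multiplied before counts are divided by them, differed between the groups. They were 1.03 and 1.08 in the WT libraries and 0.957 and 0.943 in the others. In CPM, the sums of complexes I to IV and of cytochrome c were higher in both libraries labelled Trim24-deficient than in either WT library. For complexes I, III and IV the margin of Trim24-deficient replicate 1 over WT replicate 1 was narrow. These sums were 3882 against 3834, 1697 against 1677 and 2526 against 2475 CPM. Complex V overlapped. All members together summed to 14167 and 12248 CPM against 14335 and 16181 CPM, a ratio of 1.16 with no overlap. For such sums, an exact two-sided permutation test of 2 against 2 cannot go below p = 0.333.

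**Figure D2:**
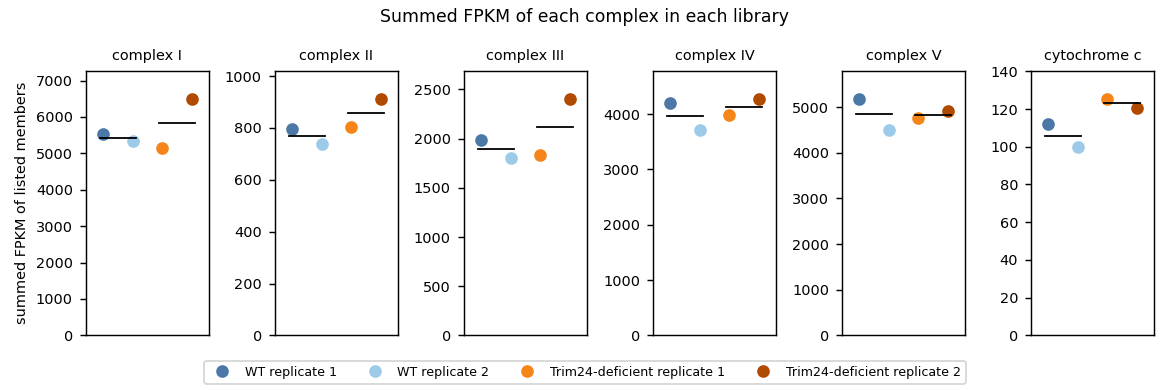
Summed FPKM of the listed members of each complex (y axis, from 0, with its own scale per complex) in each of the 4 libraries as points, with the group means as lines. Complexes are assigned by symbol, with Ndufa4 in complex I. Trim24-deficient replicate 2 is the highest library for complexes I to IV, and the groups are apart only for complex II and cytochrome c.

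The difference between the libraries labelled Trim24-deficient moved with base composition. Members had transcript GC contents of 40.8 to 61.1%. In the third of tested members with the lowest GC content (27 genes), the median deviation from WT on the log2 CPM scale was 0.18 in Trim24-deficient replicate 1 and 0.16 in replicate 2. In the third with the highest GC content (26 genes), it was 0.06 in replicate 1 and 0.51 in replicate 2. Across the 80 members, the difference of replicate 2 minus replicate 1 had a Spearman correlation of 0.50 with GC content, against 0.13 across 11175 genes with a GC value, where genes of 1 library pair share its depth and preparation and are not independent. Removing the length trend left a member median log2 fold change of 0.13, and removing the length and GC trends together left 0.12. The part of GC content alone was not tested.

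**Figure D3:**
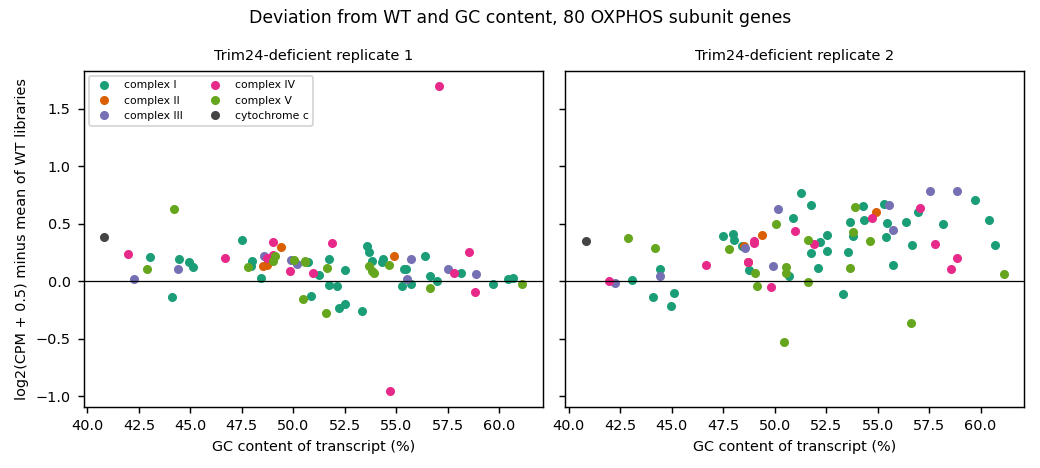
Deviation of each tested member from the mean of the WT libraries on the log2(CPM + 0.5) scale (y axis) against the GC content of its transcript in percent (x axis), for Trim24-deficient replicate 1 (left) and replicate 2 (right), colored by complex. In replicate 2 the median deviation is 0.16 in the third of lowest GC and 0.51 in the third of highest GC, and in replicate 1 it is 0.18 and 0.06.

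Members also had short transcripts, with a median length of 700 bases against 2810 for all genes tested. Over all genes, the log2 fold change had a Spearman correlation of -0.25 with length, and within the members it was -0.10. Another set of short and abundant transcripts, the cytosolic ribosomal proteins (median 721 bases and 51.6% GC, against 51.7% for the members), lay on the other side. Of its 84 tested genes 13 lay above 0, and the median log2 fold change was -0.21. None of these 84 genes was called.

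Other mitochondrial genes were counted from lists that were not picked by how they moved, although earlier results of these data were known. None of these genes was called in either direction. Mitochondrial ribosomal proteins were closest to the OXPHOS members, with 62 of 78 tested genes above 0 (median 0.16). Assembly factors of the complexes had 29 of 47 above 0 (median 0.15), with Cox17, a copper chaperone of complex IV, at 45.0 and 47.3 CPM in WT against 56.9 and 56.1 CPM. Enzymes of the tricarboxylic acid cycle had 8 of 14 above 0 (median 0.11), with Mdh2, malate dehydrogenase, at 371 and 315 against 393 and 553 CPM. A list of inner membrane carriers, uncoupling proteins, outer membrane Vdac channels and the enzyme Nnt had 5 of 9 above 0 (median 0.11). In it, Slc25a5, an ADP/ATP carrier, was 973 and 838 against 1028 and 1330 CPM. Ucp2, an uncoupling protein homolog, was 1004 and 717 against 1156 and 696 CPM. Of 15 tested regulators of mitochondrial biogenesis 3 lay above 0 (median -0.14). None of the 13 subunits coded by mitochondrial DNA was listed in any library, so they were not analysed.

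**Figure D4:**
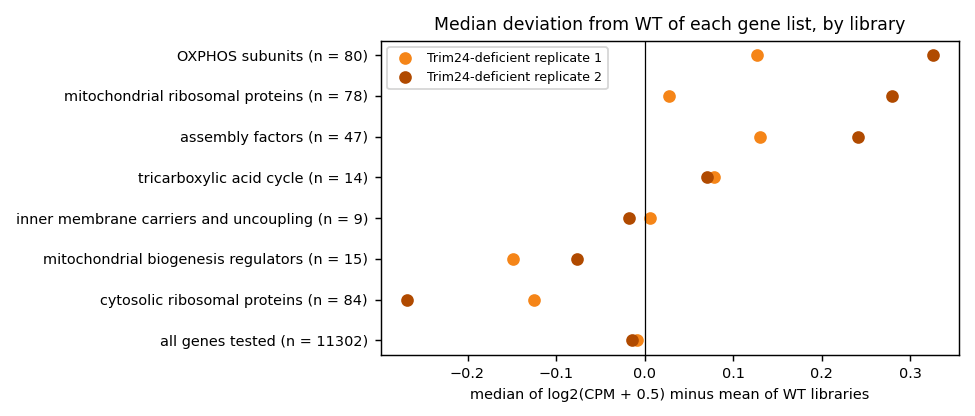
Median over the tested genes of each list of the deviation from the mean of the WT libraries on the log2(CPM + 0.5) scale (x axis), in each library labelled Trim24-deficient (points). OXPHOS members lie at 0.127 and 0.326, cytosolic ribosomal proteins at -0.12 and -0.27, and all genes near 0.

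Cell type markers also differed between libraries, in part along the groups. All 8 of 8 macrophage markers lay above 0, with a median log2 fold change of 0.18, beside 0.23 for the OXPHOS members, and none was called. The monocyte markers Ly6c2, Ccr2 and Plac8 summed to 490 and 607 CPM in the WT libraries and 1527 and 961 CPM in those labelled Trim24-deficient, with all 3 of 3 above 0. Neutrophil markers summed to 89.7 and 109 CPM against 101 and 252 CPM, with members on both sides of 0. Cxcr2, which made up most of the WT sum, was 63.6 and 84.0 against 42.8 and 76.8 CPM, S100a8 was 17.4 and 15.6 against 35.1 and 118 CPM, and S100a9 was 6.66 and 9.38 against 19.2 and 44.8 CPM. Ly6g and Camp were at or near 0 in every library, at up to 1.92 and 0.205 CPM. Melanoma markers summed to 783 and 740 against 585 and 789 CPM, with 5 of 6 tested below 0, and T and NK cell markers to 94.7 and 68.5 against 220 and 73.8 CPM. Dendritic cell markers summed to 34.5 and 36.7 against 66.5 and 18.9 CPM, and endothelial markers to 19.0 and 17.7 against 42.0 and 27.1 CPM. Fibroblast and B cell markers summed to at most 4.73 and 3.13 CPM in any library. Their part in the OXPHOS values was not tested, and in sorted bulk samples a different mix of cells and a different amount of RNA per cell cannot be told apart.

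Without Trim24-deficient replicate 1, 4 members were called higher, where 2.18% of 11722 tested genes were called higher. They were Ndufa3, Uqcr11, Ndufb7 and Uqcrc1, with log2 fold changes of 0.77, 0.79, 0.72 and 0.79 and adjusted p-values of 0.024, 0.024, 0.040 and 0.047 in edgeR's quasi-likelihood test. Ndufb7 is named only because of this call and was chosen after its values were seen. These values rest on Trim24-deficient replicate 2 as the lone library of its group, assumed to vary like the WT libraries. Leaving out any 1 of the other 3 libraries, no member was called.

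**Figure D5:**
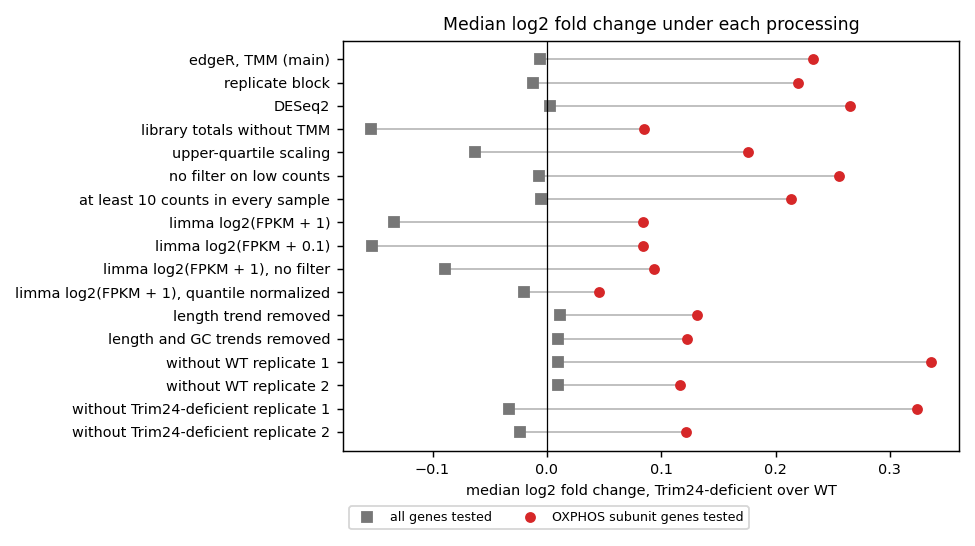
Median log2 fold change (x axis) of the tested OXPHOS members (circles) and of all genes tested (squares) under each processing (rows). The members' median stays above that of all genes in every row. The medians are 0.24 apart in the edgeR fit with TMM, 0.065 apart after quantile normalization of FPKM, the narrowest, and 0.36 apart without Trim24-deficient replicate 1, the widest.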

How the data were processed

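Reads were aligned by the authors with Bowtie (GRCm38/mm10), and RSEM gave the deposited expected count, FPKM value and transcript length of every gene in a library, per the labels and the study's methods. Versions are not given in the sources used here. The deposited FPKM values, scaled by the authors to transcript length and library total, served for levels between genes. The deposited expected counts were rounded and fitted over all genes with edgeR 4.0.16 in R 4.3.3 (filterByExpr, TMM, glmQLFTest on the genotype label), with Benjamini-Hochberg adjustment. The thresholds for a call, more than 1.5-fold and an FDR under 0.05, follow the study's methods. CPM values are scaled by TMM, standard errors are the log2 fold change over the root of F, and the floor of 3 counts covers counting error only.

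Genes matched RefSeq symbols by Entrez identifier for 16698 of 16739 features, and no strand setting of the counting was given. Of the members, 11 share at least 100 bases at 95% identity or more with another feature (BLAST 2.17.0), among them Atp5j with Gabpa, Ndufa13 with Tssk6, Uqcrc2 with Pdzd9 and Cox7c with a feature that has no symbol, and their counts may be split between these. Exons of 14 members overlap those of another gene by at least 100 bases on either strand, among them Ndufb2 with Braf and Ndufb8 with Gm20538. Members, lists and tests were chosen with earlier results of these data known. Named with values are, per complex, the 3 members of highest mean FPKM, the 5 of smallest p in each direction, subunit versions, and from other lists called genes and up to 3 of highest FPKM. The value of 1 member that this rule names is not reported here. Alternatives were DESeq2 1.42.0, limma 3.58.1 on FPKM, other scalings and filters, a replicate block, removal of length and GC trends, and each library left out. The GC removal was chosen after seeing the data. Scripts were tested on simulated data.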

Additional observations from a re-analysis of the deposited data

How the results depend on the processing

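With 2 libraries per group, the interval of most members reaches past 1.5-fold, so changes of that size could not be told from 0. No member was called higher or lower under the alternatives that kept all 4 libraries, and leaving out 1 library gave 0 to 4 members called higher and 0 called lower. All genes called were 42 in the edgeR fit, 163 with DESeq2, 24 with limma on log2(FPKM + 1), 17 after quantile normalization and 0 (1954 at an unadjusted p under 0.05) without a filter in limma, and leaving out 1 library gave 25 to 652. The replicate block gave 634 called genes, no member among them, and a member median of 0.22. With it, 5 of 80 members had an unadjusted p under 0.05, beside 1824 of 11302 genes tested. Without it, these counts were 0 and 1379. The lowest member adjusted p with the block was 0.080 in edgeR's quasi-likelihood test. Samples share only a number: the deviations of same-numbered samples correlated at 0.166 over genes, and the block changed the call of no member.

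The members' median log2 fold change, 0.23, was 0.085 with library totals, 0.084 with limma on log2(FPKM + 1), 0.084 with log2(FPKM + 0.1) and 0.045 after quantile normalization, while the median of all genes moved from -0.0059 to -0.15, -0.13, -0.15 and -0.020. Leaving out 1 library gave 0.116 to 0.336, 0.116 without WT replicate 2. The part of scaling in these shifts is their construction, and other causes were not tested.

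Some members near 0 changed sign. With library totals, log2 fold changes were -0.10 for Atp5b, -0.074 for Atp5g1, -0.026 for Atp5j, -0.089 for Cox6a1, -0.14 for Cox7a2l, -0.028 for Cox7b and -0.15 for Uqcrb. With upper-quartile scaling, they were -0.012 for Atp5b, -0.052 for Cox7a2l and -0.056 for Uqcrb. With limma on log2(FPKM + 1), with or without the filter, and on log2(FPKM + 0.1), they were -0.098 for Atp5b, -0.105 (log2(FPKM + 0.1), -0.106) for Atp5g1, -0.094 for Cox6a1, -0.128 (log2(FPKM + 0.1), -0.129) for Cox7a2l, -0.030 for Cox7b and -0.146 for Uqcrb. After quantile normalization, they were -0.15 for Atp5b, -0.13 for Atp5g1, -0.017 for Atp5j, -0.16 for Cox6a1, -0.16 for Cox7a2l, -0.066 for Cox7b, -0.0066 for Cox8a, -0.053 for Sdhc and -0.17 for Uqcrb. With the length trend removed, they were -0.017 for Atp5b, -0.043 for Atp5g1, -0.057 for Cox6a1, -0.084 for Cox7a2l and -0.11 for Uqcrb, and with the length and GC trends removed -0.024, -0.054, -0.0054, -0.089 and -0.13. With at least 10 counts in every sample, Cox7a2l was at -0.0051 and Uqcrb at -0.0083, and with DESeq2 Cox7a1 was at 0.0073 and Ndufb3 at 0.0059.

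Leaving out 1 library gave ranges that include 0 for Atp5b (-0.10 to 0.22), Atp5g1 (-0.27 to 0.36), Atp5g2 (-0.41 to 0.017), Cox6a1 (-0.089 to 0.20), Cox7a1 (-1.10 to 0.60), Cox7a2l (-0.22 to 0.28), Cox7b (-0.0020 to 0.26), Ndufb3 (-0.21 to 0.17), Ndufb8 (-0.041 to 0.68) and Uqcrb (-0.070 to 0.090).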
